A study of Mus musculus with 18 samples.

Results

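A set of 10 imprinted genes tied to growth before and around birth was followed in mouse liver: Igf2, Igf2r, Grb10, Cdkn1c, H19, Meg3, Dlk1, Plagl1, Peg3 and Mest. They were taken as a set by name, with earlier results of these data known, and found by symbol. All 10 were present among the 37315 genes counted. All 10 also passed the filter on low counts that left 16213 genes for testing, Dlk1 only through its pup libraries. The libraries held polyadenylated RNA of whole liver from C57BL/6J mice, 3 libraries in each of 6 groups. Mice aged 2, 8 or 16 weeks received either asparaginase (Elspar, the enzyme drug that depletes asparagine in blood) at 3 IU per g of body weight or the same volume of phosphate-buffered saline (PBS). Injections went into the peritoneum each morning, 7 of them at 2 and 16 weeks and 8 of them at 8 weeks, and liver was collected 7.5 h after the last. The PBS mice therefore shared the handling and injections but not the enzyme. RNA of every age was sent for library preparation and sequencing together, per the labels' protocols. The labels mark no separate cultures, litters or donors beyond the libraries themselves, so p-values measure the spread between these libraries. Libraries are called by age, treatment and a number that only names them.

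Imprinted genes are transcribed mainly from the copy inherited from one parent, because DNA methylation set in the egg or sperm marks one copy. Genes used from the father's copy, such as Igf2, Dlk1, Peg3, Mest and Plagl1, mostly promote fetal growth, and genes used from the mother's copy, such as Igf2r, Cdkn1c, H19, Meg3 and, outside the brain, Grb10, mostly restrain it. Many of them are abundant in fetal liver and decline together as growth slows after birth. In an inbred strain the parental copies carry the same sequence, so these counts give the sum of both copies and cannot show which was in use.

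Levels are counts per library size in the usual CPM unit, after TMM scaling of library sizes. Fold changes, standard errors (SE) and adjusted p-values come from 1 quasi-likelihood model (edgeR) with a term for labelled sex within each age, and the words rose and fell are kept for a Benjamini-Hochberg adjusted p under 0.05 over all 16213 genes. Every group held both labelled sexes in unequal numbers. Males were the majority in the 2-week PBS group and in both adult asparaginase groups, and females in the others. Treatment and sex were thus partly confounded at each age. Libraries held between 24690871 and 46949361 counts. Liver transcripts were abundant: the 10 hepatocyte markers summed to between 67370 and 111500 CPM in every library, none at 0 in all libraries. Other tissue was present too. The 11 pancreas acinar genes summed to 75.5 to 178 CPM in PBS pups and 567 to 1614 CPM in asparaginase pups. They reached 4171 CPM in 16-week asparaginase 3. Squamous epithelium genes reached 171 CPM in 8-week asparaginase 1 and adrenal cortex genes 50.4 CPM in 8-week asparaginase 2. The part of such tissue in the treatment results was not tested. The treatment was visible in asparagine synthetase, Asns, which rose at all 3 ages (log2 fold changes of 2.85, 1.80 and 4.27 at 2, 8 and 16 weeks). The treatment calls in pups and at 8 weeks, Asns among them, were not stable. At 2 weeks 0 of all genes were called without 2-week asparaginase 1. At 8 weeks 0 were called in 6 of the 18 fits that left out 1 library.

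Several of the 10 genes host a microRNA, and these short products show what a host transcript can carry besides its own message. Their mature sequences are given 5′ to 3′ from RefSeq (GRCm38.p6), with the seed, bases 2 to 8, in capitals. The H19 pair lies within an exon, and the Igf2 and Mest pairs lie in introns of their hosts.
miR-675-5p (H19): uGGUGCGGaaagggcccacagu
miR-675-3p (H19): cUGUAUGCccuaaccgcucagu
miR-483-5p (Igf2): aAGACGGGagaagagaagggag
miR-483-3p (Igf2): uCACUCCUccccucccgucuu
miR-335-5p (Mest): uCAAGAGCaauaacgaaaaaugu
miR-335-3p (Mest): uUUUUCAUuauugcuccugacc
miR-770-5p (Meg3): aGCACCACgugucugggccacg
miR-770-3p (Meg3): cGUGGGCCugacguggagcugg
The 8 seeds all differ. The rows of these miRNA genes held almost no counts over the 18 libraries (0 for Mir675, 1 for Mir483, 3 for Mir335 and 0 for Mir770), and libraries of polyadenylated RNA are not made to capture mature miRNAs. Only the host transcripts are therefore measured here.

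RefSeq start-site windows, which reach from 250 bases before to 50 bases after a start, were found for 8 of the 10 genes, 15 windows in all. They were searched on both strands for the cyclic AMP response element TGACGTCA, the GC element GGGGCCCC bound by PLAGL1, the TATA box core TATAAA and the amino acid response element core TGATGNAA. These occur in 1.79%, 1.08%, 13.6% and 3.97% of 32851 such windows in the genome. The cyclic AMP element was matched in 2 of the 15 windows, 1 of Peg3 and 1 of Meg3, and those stretches are shown with every match in capitals.
Peg3 (GRCm38.p6, chr7:6730470-6730669, minus strand): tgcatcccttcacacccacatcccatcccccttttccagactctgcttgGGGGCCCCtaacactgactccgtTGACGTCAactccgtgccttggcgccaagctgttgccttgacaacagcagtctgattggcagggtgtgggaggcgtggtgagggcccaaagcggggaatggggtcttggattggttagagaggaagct
Meg3 (GRCm38.p6, chr12:109540796-109540995, plus strand): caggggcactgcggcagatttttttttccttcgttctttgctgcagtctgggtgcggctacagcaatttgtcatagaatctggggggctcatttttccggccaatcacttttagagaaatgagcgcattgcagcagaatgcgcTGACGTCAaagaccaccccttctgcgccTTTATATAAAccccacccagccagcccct
In Peg3 the GC element began 201 bases and the cyclic AMP element 178 bases before the start. In Meg3 the cyclic AMP element began 57 bases before the start, and overlapping TATA cores on both strands began 29 and 25 bases before it. The amino acid element was matched in 0 of the 15 windows. These are matches of letters, not measured binding. The windows also differed in CpG content, where the median of all windows was 7: Igf2r held 34, Plagl1 26 and Peg3 13, while the Igf2 windows ranged from 2 to 24 and those of Meg3 from 1 to 13.

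One pup library stood apart and bears on every result at 2 weeks. PBS 1 was the lowest of the 6 pup libraries for 9 of the 10 genes and second lowest for Igf2r, whereas it was lowest for 23.8% of the 12970 genes that averaged at least 1 CPM in pups. Asparaginase 1 came second lowest for 9 of the 10 and lowest for Igf2r (it was lowest for 22.4% of the same genes). PBS 1 had 138 genes more than 4-fold from the median of the other pups, against 32 to 68 in each other pup library. Separately, 3 pup libraries held both Xist and Y-linked transcripts: PBS 1 and PBS 2, labelled male, and asparaginase 3, labelled female. Without these 3 libraries PBS 3 was the only PBS pup, so only effect sizes are interpreted for that fit.

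**Figure D1:**
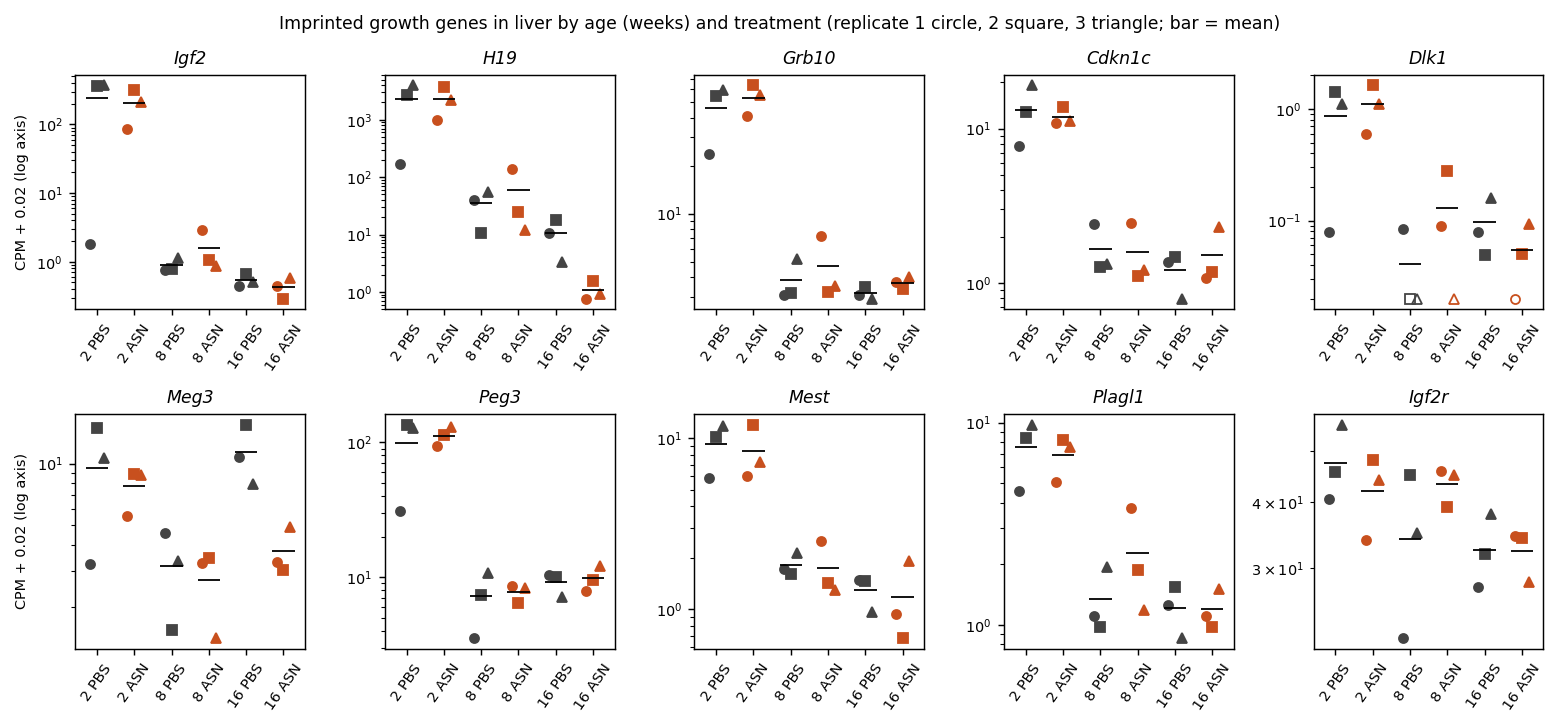
Level of each of the 10 genes in all 18 libraries, by age and treatment. Each panel is a gene, the vertical axis is CPM + 0.02 on a log scale, markers are libraries (circle 1, square 2, triangle 3; open where the count was 0), and bars are group means; PBS 1 at 2 weeks lies below the other pups in 9 panels, and 16-week PBS livers hold Meg3 at 7.91 to 15.5 CPM.

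The age comparison asks how the genes moved between suckling pups and adults. In PBS mice all 10 were lower at 8 weeks than at 2 weeks by the test (16.9% of all genes tested were), and 9 of 10 were lower at 16 weeks (14.5% of all genes). Dlk1 is in both counts although it passed the filter only through pup libraries (at most 0.256 CPM in any adult), which favours a call of lower. The median log2 fold change over the 10 genes was -3.51 at 8 weeks and -3.56 at 16 weeks, against -0.00904 and -0.00871 over all genes tested. The set was chosen with earlier results of these data known, so its standing against all genes is a description. The groups did not overlap for 7 genes at 8 weeks (18.6% of all genes did not overlap in this direction) and for 8 genes at 16 weeks (20.2%). At 8 weeks the decline ran from 360-fold for Igf2 to 1.42-fold for Igf2r, and at 16 weeks Meg3 was the exception. Without the 3 pup libraries of mixed sex, where PBS 3 was the only PBS pup, calls are not interpreted. In whole liver, fewer cells of a type and less RNA per cell cannot be told apart.

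Igf2 (GRCm38, chr7:142650766-142666816, minus strand), the fetal growth factor that signals through the IGF1 and insulin receptors, had the steepest decline at 8 weeks. The 2-week PBS livers held 1.81, 362 and 373 CPM, the 8-week PBS livers 0.733, 0.762 and 1.12 CPM, and the 16-week PBS livers 0.419, 0.642 and 0.490 CPM. PBS adults lay below every PBS pup, though PBS 1 was much nearer to the adults than to its group, and 1 asparaginase adult, 8-week asparaginase 1 at 2.88 CPM, lay above it. The log2 fold change was -8.49 at 8 weeks (SE 1.37, adjusted p = 0.000714) and -9.10 at 16 weeks (SE 1.45, adjusted p = 0.000663), or 360-fold and 549-fold. Without PBS 1 the same values were -9.02 (SE 0.446) and -9.61 (SE 0.477), and without PBS 2 they were -6.39 and -6.98. The antisense transcript of the locus, Igf2os, had 72 counts over the 2-week PBS group and 0 over the 8-week PBS group, at least 22.9-fold higher in pups (against 3 counts over the group; counting error only). Another annotated gene of the same strand, Gm49394, shares 62.8% of the Igf2 exon bases and was not used here.

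Igf2r (chr17:12682406-12769664, minus strand), the mannose 6-phosphate receptor that carries IGF2 to the lysosome, changed least of the genes that fell. Its levels in PBS mice were 40.5, 45.5 and 56.0 CPM at 2 weeks, 22.2, 44.9 and 35.0 at 8 weeks, and 27.7, 31.9 and 37.9 at 16 weeks. The 8-week values overlapped those of the pups, and the 16-week values did not. The log2 fold change was -0.51 (SE 0.176, adjusted p = 0.0428) at 8 weeks and -0.56 (SE 0.178, adjusted p = 0.0343) at 16 weeks by edgeR. Both calls were weak: with 1 of the 18 libraries left out they held in 4 and 9 of 18 fits, and with no sex term neither held (adjusted p = 0.12 and 0.0881). Without the 3 mixed pup libraries, where PBS 3 was the only PBS pup, the log2 fold changes were -0.71 and -0.74. These are falls of 1.42-fold and 1.47-fold.

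Grb10 (chr11:11930508-12038683, minus strand), an adaptor that binds and restrains the insulin and IGF1 receptors, measured 23.5, 54.6 and 59.6 CPM in 2-week PBS livers. It fell to 3.06, 3.18 and 5.19 CPM at 8 weeks and 3.09, 3.44 and 2.91 CPM at 16 weeks. The drop was large even against PBS 1, the lowest pup. The log2 fold changes were -3.80 (SE 0.295, adjusted p = 7.04e-06) and -3.96 (SE 0.302, adjusted p = 4.21e-06). Adult values stayed inside a narrow band, between 2.91 and 7.26 CPM in all 12 adult libraries.

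Cdkn1c (chr7:143458339-143461050, minus strand), which encodes the cyclin-dependent kinase inhibitor p57, measured 7.73, 12.8 and 19.1 CPM at 2 weeks in PBS mice. The 8-week values were 2.39, 1.26 and 1.30 CPM and the 16-week values 1.35, 1.46 and 0.770 CPM. All adults lay under all pups. Its log2 fold change was -3.22 (SE 0.265, adjusted p = 1.14e-05) at 8 weeks and -3.73 (SE 0.277, adjusted p = 3.61e-06) at 16 weeks. An unused antisense annotation, Gm44732, covers 30.7% of its exon bases, and whether counting used strand is not given in the sources used here.

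H19 (chr7:142575529-142578143, minus strand), the noncoding transcript next to Igf2 that shares its enhancers, had the highest level per exon length of the 10 in pups. The 2-week PBS livers held 172, 2709 and 3997 CPM, the 8-week PBS livers 40.3, 10.7 and 54.8 CPM, and the 16-week PBS livers 10.4, 18.0 and 3.33 CPM. Even PBS 1 lay above every adult. The log2 fold change was -6.80 (SE 0.911, adjusted p = 0.000235) at 8 weeks and -8.20 (SE 1.01, adjusted p = 0.000105) at 16 weeks. Without the 2-week library PBS 2 these were -5.55 and -6.93. With no sex term the change was -6.02 at 8 weeks, and without 16-week PBS 3 it was -7.23 at 16 weeks. H19 stayed called in each of these. Without the 3 mixed pup libraries the changes were -7.54 and -8.94, with PBS 3 the only PBS pup. Among the 12 adults of both treatments H19 ranged from 0.738 to 140 CPM.

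Meg3 (chr12:109541001-109571726, plus strand), the maternally expressed noncoding RNA of the Dlk1 locus, fell at 8 weeks and was not distinguishable from the pup level at 16 weeks. PBS livers measured 3.20, 14.8 and 10.6 CPM at 2 weeks, 4.56, 1.52 and 3.32 CPM at 8 weeks, and 10.8, 15.5 and 7.91 CPM at 16 weeks. The 8-week values overlapped the pups only through PBS 1. The log2 fold change was -1.92 (SE 0.478, adjusted p = 0.0095) at 8 weeks, and at 16 weeks it was 0.03 (SE 0.443, adjusted p = 0.972) with a 95% interval from -0.93 to 0.987. The call at 8 weeks was lost without the 8-week library PBS 2 (adjusted p = 0.0924), and without 2-week PBS 2 the change there was -1.20 and still called. The direct comparison of 16 with 8 weeks gave 1.94 (SE 0.479, adjusted p = 0.0937), with no overlap between the groups (8.09% of genes did not overlap in this direction), and it missed the threshold. Without PBS 1 that comparison passed (adjusted p = 0.029).

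Dlk1 (chr12:109452823-109463336, plus strand), a membrane protein of fetal hepatoblasts that inhibits differentiation, was scarce throughout. It measured 0.0592, 1.38 and 1.08 CPM at 2 weeks, and 0.0637, 0 and 0 CPM at 8 weeks in PBS mice. At 16 weeks it measured 0.0599, 0.0292 and 0.140 CPM. PBS 1 sat at the adult level. Over the groups there were 92 counts at 2 weeks against 2 at 8 weeks, a ratio of 43.8 (exact 95% interval 11.8 to 367), and 7 at 16 weeks, a ratio of 11.8 (5.53 to 30.3); these intervals cover counting error only. The edgeR test gave adjusted p = 0.0114 at 8 weeks, lost without the 2-week library PBS 2 (0.0514) or the 8-week library PBS 2 (0.138), and 0.0306 at 16 weeks, lost without 2-week PBS 2 or PBS 3 or any of the 16-week PBS livers (0.0862 to 0.167). At 16 weeks, then, Dlk1 was called lower than in pups while Meg3, its neighbour on chromosome 12, was not; the difference between the 2 genes was not tested.

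Plagl1 (chr10:13060504-13131694, plus strand), a zinc finger transcription factor known to regulate other imprinted genes, measured 4.59, 8.35 and 9.76 CPM in 2-week PBS livers and 0.960 to 1.92 CPM at 8 weeks. At 16 weeks it measured 0.840 to 1.52 CPM. The groups did not overlap, with log2 fold changes of -2.80 (SE 0.287, adjusted p = 5.37e-05) and -2.87 (SE 0.293, adjusted p = 3.1e-05). Peg3 (chr7:6703892-6730431, minus strand), another zinc finger protein, measured 30.9, 136 and 129 CPM at 2 weeks, 3.51, 7.35 and 10.7 CPM at 8 weeks and 10.3, 9.95 and 7.14 CPM at 16 weeks. Its log2 fold changes were -3.84 (SE 0.487, adjusted p = 0.000169) and -3.58 (SE 0.484, adjusted p = 0.000214), or -3.24 and -2.97 without 2-week PBS 2. Peg3 stayed detectable in all 12 adult livers, at 3.51 to 12.0 CPM.

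Mest (chr6:30723547-30748465, plus strand), a hydrolase-like protein of mesoderm, measured 5.86, 10.2 and 11.7 CPM at 2 weeks in PBS mice. It fell to 1.69, 1.59 and 2.10 CPM at 8 weeks and 1.47, 1.43 and 0.945 CPM at 16 weeks. Pups and adults did not overlap, and the log2 fold changes were -2.55 (SE 0.268, adjusted p = 5.95e-05) and -3.13 (SE 0.28, adjusted p = 1.59e-05). Copg2, on the opposite strand, shares 23.1% of the Mest exon bases and lay at 18.6 to 26.8 CPM in all libraries; without strand, reads of the shared bases cannot be told apart.

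**Figure D2:**
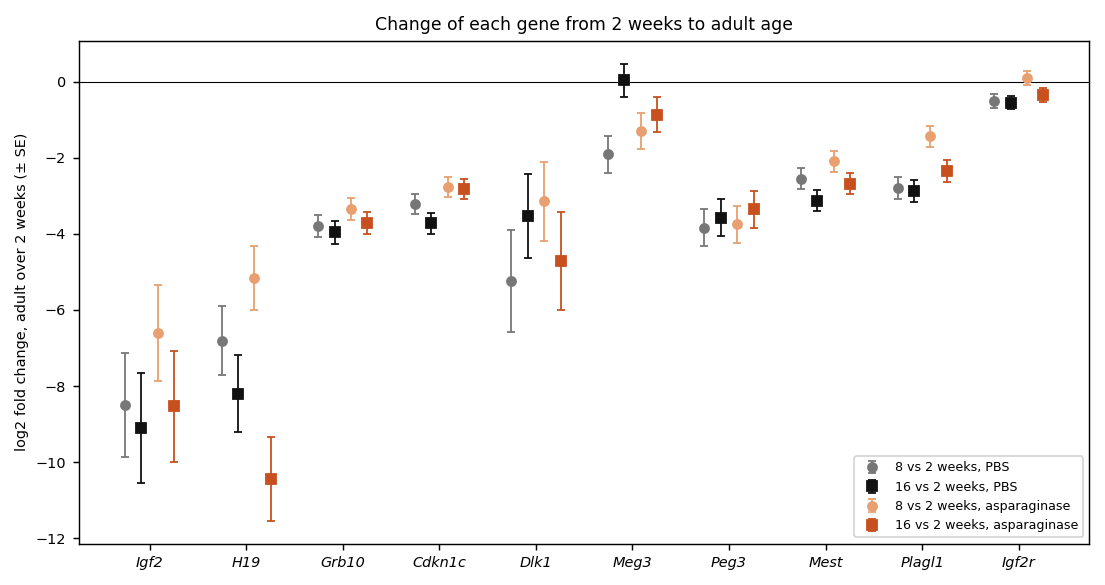
Log2 fold change of each gene against 2 weeks (8 and 16 weeks, in PBS and in asparaginase mice), with bars of 1 SE from the edgeR model. Igf2 and H19 are the lowest points of each comparison (-8.49 and -6.80 at 8 weeks in PBS mice), and Meg3 at 16 weeks in PBS mice sits at 0.03.

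Corrected for exon length, the order of the genes changed with age. In 2-week PBS livers H19 led at 932 ± 791 CPM per kb (SD, n = 3), then Igf2 at 42.9 ± 36.9, Peg3 at 7.39 ± 4.40, Cdkn1c at 6.49 ± 2.80, Igf2r at 5.08 ± 0.851 and Grb10 at 5.05 ± 2.15. Mest, Plagl1, Meg3 and Dlk1 followed at 2.35, 0.968, 0.527 and 0.149 CPM per kb. Peg3 and Cdkn1c, and Igf2r and Grb10, differed by less than either SD, while Cdkn1c and Igf2r differed by more than the SD of Igf2r. In 16-week PBS livers H19 (4.30 ± 2.98) and Igf2r (3.49 ± 0.554) were level within their spread, and Igf2, second in pups, was ninth at 0.0904 CPM per kb, above Dlk1 only.

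Asparaginase-treated mice gave a second view of age in other animals of the same series. There, 8 of the 10 genes were lower at 8 weeks (15.3% of all genes) and 8 of 10 at 16 weeks (13.7%), the exceptions both times being Meg3 and Igf2r. In each of these comparisons 9 of the 10 did not overlap, all but Igf2r (22.9% and 24.3% of all genes). Dlk1, which passed the filter only through pup libraries, is in all of these counts. Igf2 measured 86.3, 319 and 216 CPM in asparaginase pups, 2.88, 1.03 and 0.847 CPM at 8 weeks and 0.422, 0.268 and 0.556 CPM at 16 weeks. Its log2 fold changes were -6.61 (SE 1.25, adjusted p = 0.00257) and -8.53 (SE 1.46, adjusted p = 0.00133), the first being -7.23 without 8-week asparaginase 1. The largest change of the set was that of H19 at 16 weeks, -10.44 (SE 1.10, adjusted p = 6.57e-05), from 1002, 3786 and 2239 CPM to 0.738, 1.52 and 0.889 CPM. It was -9.53 without 16-week asparaginase 3, -11.09 without 16-week asparaginase 2 and -11.11 with no sex term. Meg3 gave -1.30 at 8 weeks (adjusted p = 0.056) and -0.87 at 16 weeks (adjusted p = 0.179). Igf2r gave 0.09 (adjusted p = 0.717) and -0.35 (adjusted p = 0.162). Dlk1 had 121 counts in pups against 12 at 8 weeks and 3 at 16 weeks, ratios of 10.2 (exact 95% interval 5.62 to 20.2) and 31.8 (10.6 to 156). Its call was lost in 10 of 18 fits with 1 library left out at 8 weeks and in 4 of 18 at 16 weeks (adjusted p from 0.0579 to 0.0712 in those 4).

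Between 8 and 16 weeks in PBS mice, none of the 10 genes passed edgeR's test (0 called; 0.413% of all genes were called). Among the members Meg3, Igf2 and Mest did not overlap between these ages, Meg3 being higher and the other two lower at 16 weeks (16.3% of all genes in either direction). The Igf2 difference of -0.61 (adjusted p = 0.889) rests on levels under 1.2 CPM. At an unadjusted p under 0.05 the count was 1 of the 10, Meg3, where 15.4% of all genes had one, and DESeq2 called 1 of the 10 and 550 of all genes.

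The other genes of the pathway put the decline in its setting. Of 24 tested genes of the IGF axis, 2 rose and 9 fell from 2 to 8 weeks in PBS mice. Of all 16213 genes tested, 5137 were called in either direction between these ages, 2743 of them lower (16.9%). Igf2bp3, an RNA-binding protein of fetal growth named for its binding of Igf2 mRNA, fell from 7.74 to 10.7 CPM in pups to 0.0637 to 0.125 CPM, a log2 fold change of -6.40 (SE 0.373, adjusted p = 1.92e-06). It did not share the standing of PBS 1, where it was highest of the 3 PBS pups. Igfbp1, Igfbp3 and the adaptor Irs2 also fell (log2 fold changes of -3.57, -1.77 and -1.84). Igf1, the postnatal growth factor made by liver, stayed at 292 to 365 CPM in pups and 370 to 508 CPM at 8 weeks (log2 fold change 0.38, adjusted p = 0.176). Igfals and Ghr were the 2 genes that rose.

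Other imprinted genes did not move as a block. Of 59 listed, 53 were matched and 42 tested. At 8 weeks 8 of these rose and 16 fell (16.9% of all genes fell). Their median log2 fold change was -0.24, where the 10 growth genes had -3.51. Qpct (-1.52), Sgce (-1.53) and Airn (-2.16), the antisense RNA of the Igf2r locus, fell, while Ddc rose (1.41). The 6 with the highest CPM in pups were Slc38a4, Dcn, Cd81, H13, Slc22a18 and Pon3. The first of these, an amino acid transporter, rose from 787, 677 and 554 CPM to 1053, 1207 and 878 CPM (log2 fold change 0.70, adjusted p = 0.00977). Impact, an inhibitor of the amino acid sensor GCN2, lay between 6.09 and 10.2 CPM in all 18 libraries (log2 fold change at 8 weeks -0.18, adjusted p = 0.476). The lists were not chosen independently of these data, and the difference between them is a description.

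Genes of proliferation and of imprint upkeep also fell with age. Of 34 cell-cycle genes, 0 rose and 29 fell at 8 weeks in PBS mice, led by Stmn1 (-2.54), Cdk1 (-3.34) and Hells (-2.61). For this and the following lists, 16.9% of all genes fell in the same comparison. Of 13 tested genes that maintain methylation or imprints, 1 rose and 8 fell, among them Uhrf1 (-3.53), Dnmt3b (-1.87), Dnmt3a (-0.97) and Dnmt1 (-0.88). Fetal liver genes Afp and Gpc3 fell by 6.02 and 5.23 on the log2 scale, and Zhx2, a repressor of Afp and H19, rose (0.65, adjusted p = 0.00108). Markers of other liver cells moved too: 6 of 11 stellate and mesenchyme markers and 7 of 8 endothelial markers were lower at 8 weeks, while 2 of 10 hepatocyte markers rose and 0 fell. The summed stellate markers ranged from 434 to 781 CPM in PBS pups and from 161 to 288 CPM in 8-week PBS livers, and their part in the decline of the 10 genes was not tested.

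PBS 1 lay near adult levels for some of these genes and not for others. Against the mean of PBS 2 and PBS 3 it was 203-fold lower in Igf2, 19.5-fold in H19 and 20.8-fold in Dlk1, but 4.27-fold in Peg3, 2.43-fold in Grb10, 2.07-fold in Cdkn1c and 1.25-fold in Igf2r. On the log2 scale its Igf2 lay 88.3% of the way from PBS 2 and PBS 3 to adult PBS livers, its H19 55.6%, its Peg3 51.7% and its Grb10 32.5%. Among the other members Meg3 lay at 171%, Dlk1 at 98%, Igf2r at 50.1%, Plagl1 at 36.7%, Mest at 33.7% and Cdkn1c at 31.3%. Afp lay 83.7% of the way (3.49 CPM against 69.7 to 201 in the other pups) and Gpc3 50.9%. The kinase inhibitor gene Cdkn1a lay at 95.2%, Igf2bp2 at 59% and Igfbp1 at 31.3%. Igf2bp3 lay at -8.52%, that is, at or above the pup level. For 154 genes more than 4-fold lower in adult asparaginase livers than in asparaginase pups, groups that do not include PBS 1, the median was 38.8% (quartiles 18.7% and 60.2%). In PBS 1 the stellate markers summed to 434 CPM and the muscle markers to 19.7 CPM, against 377 to 884 and 60.0 to 334 CPM in the other pups. Its cell-cycle genes summed to 437 CPM against 435 and 504 CPM in the other PBS pups. Its erythroid markers summed to 1593 CPM, the highest of the 18 libraries, against 364 to 1241 CPM in the other pups.

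**Figure D3:**
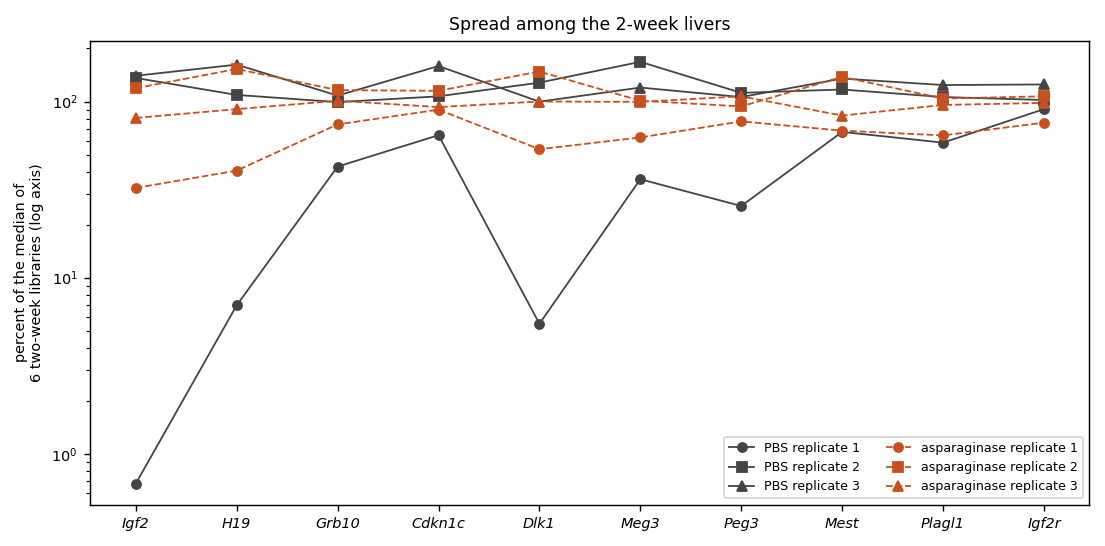
The 6 pup libraries, each gene as a percent of its median over the 6 (log axis). Circle, square and triangle are libraries 1, 2 and 3 of each treatment; PBS 1 is lowest for 9 of 10 genes and asparaginase 1 is next for those 9.

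The treatment comparison at 2 weeks asks whether asparaginase altered the genes while they were still abundant. edgeR called 0 of the 10 (0.432% of all genes were called), 0 had an unadjusted p under 0.05 (12.6% of all genes did), and DESeq2 called 0 of the 10 and 452 of all genes. The treatments overlapped for all 10 genes (16.7% of all genes did not overlap). Igf2 gave -0.78 (SE 1.03, adjusted p = 0.851) with a 95% interval from -3.00 to 1.44, and H19 gave -0.47 (SE 0.749, adjusted p = 0.891) with an interval from -2.09 to 1.16. The remaining log2 fold changes lay between -0.48, for Meg3, and 0.04, for Peg3. Over the 10 genes 3 were positive and 7 negative, with a median of -0.32. These intervals leave room for changes of several-fold in Igf2 and H19, so a difference of that size was not detectable here.

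With PBS 1 left out the SE of Igf2 dropped from 1.03 to 0.353. Without it all 10 estimates were negative and still 0 passed the adjusted threshold (0.157% of all genes did). PBS 1 was singled out as the lowest pup for 9 of these 10 genes, so leaving it out pushes the estimates down. Asparaginase 1, second lowest for 9 of them, was kept. The shared sign and the smaller p-values therefore follow in part from that choice. Igf2 then gave -1.20 (SE 0.353, unadjusted p = 0.00544, adjusted p = 0.218 by edgeR), with PBS 2 and PBS 3 at 362 and 373 CPM and the asparaginase pups at 86.3, 319 and 216 CPM. Cdkn1c gave -0.47 (adjusted p = 0.39) and Meg3 -0.78 (adjusted p = 0.411). Leaving out PBS 2 instead turned Igf2 to 1.23 and H19 to 0.70. The sign of the Igf2 and H19 estimates in pups therefore depended on which PBS library was kept. With all libraries kept, H19 also turned positive with no sex term (group means of 2343 CPM with asparaginase and 2293 CPM with PBS). That term uses labelled sex, and 3 pup libraries held both Xist and Y-linked transcripts. The estimates of Mest (-0.56 to -0.17), Plagl1 (-0.50 to -0.14) and Igf2r (-0.37 to -0.29) were negative in all 18 fits with 1 library left out.

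Other lists were read in the same comparison, where 0.432% of all genes passed in either direction. All 34 cell-cycle genes had negative estimates at 2 weeks, with a median of -1.12, and 3 passed: Stmn1 (-1.18), E2f1 (-1.39) and Hells (-1.17). Cdkn1c, the kinase inhibitor among the 10 genes, gave -0.28 (adjusted p = 0.727). Of the 24 IGF-axis genes 0 passed edgeR's test in pups, and of the 42 other imprinted genes 0 passed. In the check of treatment 5 of 8 amino acid stress genes rose in pups, Trib3 by 2.97 and Psat1 by 1.74 on the log2 scale. These cell-cycle and stress calls were lost without asparaginase 1, where 0 of all genes were called.

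At 8 weeks all 10 estimates were positive, with a median of 0.38 against 0.00641 over all genes, and 0 passed by edgeR (0.364% of all genes did). With no sex term Cdkn1c (-0.053), Meg3 (-0.22) and Mest (-0.056) turned negative. With 1 library left out 5 of the 10 had a negative value in at least 1 fit, the lowest being -0.14 for Cdkn1c, -0.24 for Mest and -0.085 for Igf2r without 8-week asparaginase 1, -0.15 for Peg3 without 8-week PBS 1 and -0.27 for Meg3 without 8-week PBS 2. The treatments again overlapped for all 10 genes (15.9% of all genes did not). Plagl1 came nearest: 1.08, 0.960 and 1.92 CPM in PBS livers and 3.76, 1.85 and 1.16 CPM in asparaginase livers, a log2 fold change of 1.02 (SE 0.29, unadjusted p = 0.00392, adjusted p = 0.0977). DESeq2 called 1 of the 10, Plagl1, at 1.04, and 659 of all genes. Asparaginase 1 was the highest of the 6 livers of 8 weeks for 7 of the 10 genes, among them Igf2 (2.88 CPM), H19 (140 CPM) and Plagl1. For Cdkn1c (2.44 against 2.39 CPM) and Igf2r (45.7 against 45.0 CPM) the lead was slight. The share of all genes for which it was highest was not computed, so the count is a description. Without it the Plagl1 value was 0.66, and without asparaginase 3 Plagl1 passed edgeR's test (adjusted p = 0.0484). The same library held the most muscle transcripts, 2317 CPM summed over 11 genes. Its stellate and squamous epithelium sums, 423 and 171 CPM, were also the highest of the adults.

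At 16 weeks 0 of the 10 passed by edgeR (0.234% of all genes did) and DESeq2 called 0 of the 10 and 321 of all genes, while 2 had an unadjusted p under 0.05 (11.4% of all genes did). These were H19, from 10.4, 18.0 and 3.33 CPM to 0.738, 1.52 and 0.889 CPM (log2 fold change -2.70, SE 0.978, adjusted p = 0.323), and Meg3, from 10.8, 15.5 and 7.91 CPM to 3.27, 3.01 and 4.85 CPM (-1.38, SE 0.476, adjusted p = 0.29). Neither overlapped between treatments; 9.66% of all genes did not overlap in this direction. The H19 estimate ran from -3.99 without 16-week PBS 3 to -1.54 without 16-week asparaginase 3. The other 8 genes overlapped.

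**Figure D4:**
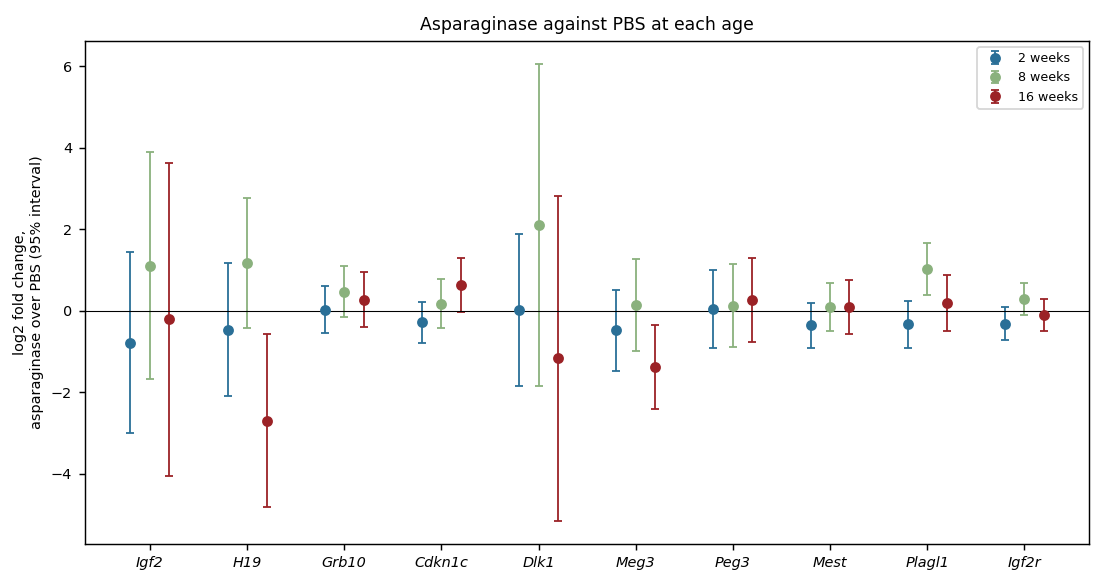
Log2 fold change of asparaginase over PBS for each gene at 2, 8 and 16 weeks, with 95% intervals from the edgeR model. At 2 weeks every interval includes 0 (Igf2 from -3.00 to 1.44, H19 from -2.09 to 1.16), and at 16 weeks those of H19 and Meg3 lie below 0 although neither passed the adjusted threshold.

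The treatment effect was also compared between ages. No gene of the 16213 passed edgeR's test for a different effect at 2 than at 8 weeks (0 called, 1509 at an unadjusted p under 0.05, 83 by DESeq2) or than at 16 weeks (0 called, 1005 and 107). Of the 10 genes 2 had an unadjusted p under 0.05 for the first difference, Plagl1 and Igf2r, and 1 for the second, Cdkn1c. Plagl1 gave -1.36 for 2 minus 8 weeks (SE 0.395, unadjusted p = 0.00462, adjusted p = 0.372). The sign of its treatment estimate was negative in pups and positive at 8 weeks, and the difference did not pass.

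Adult H19 moved with transcripts of skeletal muscle, a tissue in which H19 is known to stay on after birth. The 11 muscle genes, none at 0 in all libraries, summed to 682, 289 and 802 CPM in 8-week PBS livers, 2317, 375 and 156 CPM in 8-week asparaginase livers, 130, 255 and 47.4 CPM in 16-week PBS livers, and 4.54, 18.0 and 3.37 CPM in 16-week asparaginase livers. Over the 12 adult livers the log2 values of H19 and of this sum gave Pearson's r = 0.983 and Spearman's rho = 0.972, each with a two-sided permutation p of 1e-05, the smallest that the 100000 permutations can give (adjusted p = 0.0001 over 10 relations, 1 per gene). Without the 2 livers farthest from the median sum r was 0.987. Within 8 weeks r was 0.965 and rho 0.943 (n = 6, exact permutation p = 0.00417 and 0.0167, adjusted p = 0.0208 and 0.0833), and within 16 weeks r was 0.978 and rho 0.943 (n = 6, exact permutation p = 0.00417 and 0.0167, adjusted p = 0.0417 and 0.167). The permutations shuffled livers across treatments, and over the 12 adults also across ages. The p-values therefore partly measure differences between groups, not only a relation from liver to liver. At 16 weeks the treatments did not overlap on either axis, so treatment and muscle transcripts cannot be told apart there. All 10 tested muscle genes were lower at 16 weeks with asparaginase, and 0 passed the test.

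H19 per 100 CPM of muscle sum put a number on this. It was 3.68 to 7.78 at 8 weeks in both treatments and 7.02 to 8.00 in 16-week PBS livers. The 16-week asparaginase livers had 16.3, 8.47 and 26.4, where both quantities were lowest. In pups it was 671 to 3855, far above every adult, so pup H19 was not in the adult proportion to these transcripts. The share of adult H19 that came from muscle was not tested.

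The relation to the muscle sum was also computed for the other members, with permutations of the same kind and the same limit. Grb10, Plagl1 and Cdkn1c gave r = 0.795, 0.792 and 0.75 within 8 weeks. None of these passed (exact permutation p = 0.0639, 0.0514 and 0.0903). Without the 2 farthest livers the 8-week values were 0.616, 0.374 and 0.521. Over 12 adults the 3 genes gave r = 0.355, 0.526 and 0.258, or 0.662, 0.77 and 0.712 without the 2 farthest. Dlk1, Peg3 and Igf2r gave r = 0.0818, -0.336 and 0.22 over 12 adults (permutation p = 0.801, 0.292 and 0.491). Within 16 weeks Grb10, Plagl1 and Cdkn1c gave r = -0.668, 0.0937 and -0.233. Igf2 gave r = 0.75 and rho = 0.825 over 12 adults (permutation p = 0.00393 and 0.00183, adjusted p = 0.0196 and 0.00915). Without the 2 farthest its r was 0.896. Within 8 weeks its r was 0.793, which did not pass (n = 6, exact permutation p = 0.0611), and 0.307 without the 2 farthest. Within 16 weeks it was 0.238 (exact permutation p = 0.676). Meg3 gave r = -0.07 over 12 adults, 0.69 within 8 weeks (exact permutation p = 0.147) and 0.859 within 16 weeks (exact permutation p = 0.0472, adjusted p = 0.236). Mest gave r = 0.594 and rho = 0.608 over 12 adults (permutation p = 0.0412 and 0.0399, adjusted p = 0.137 and 0.133). Without the 2 farthest its r was 0.967. Within 8 weeks r and rho were both 0.943 (exact permutation p = 0.00417 and 0.0167, adjusted p = 0.0208 and 0.0833). That r fell to 0.772 without the 2 farthest, and within 16 weeks r was 0.105.

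**Figure D5:**
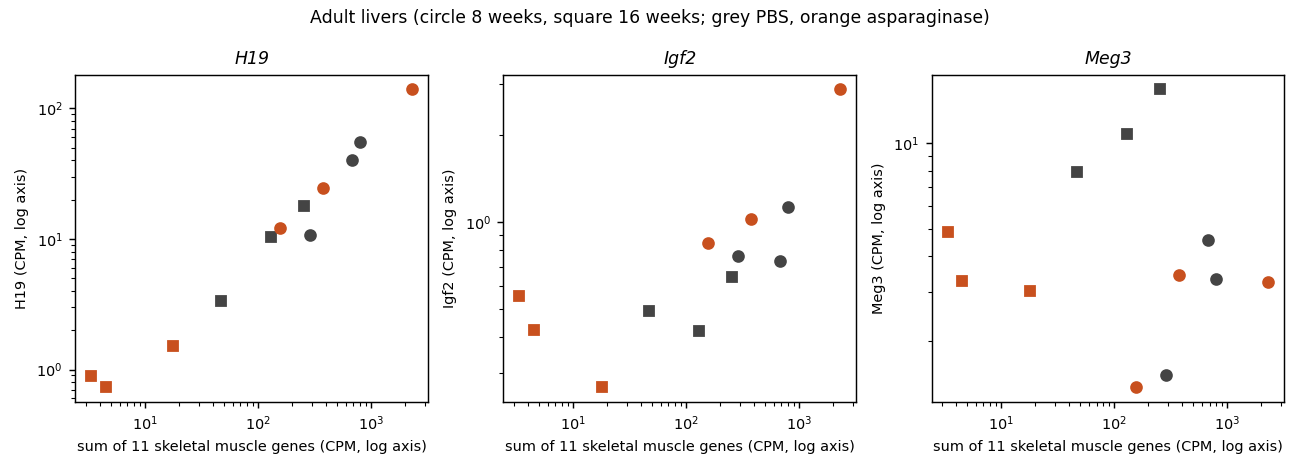
H19, Igf2 and Meg3 (CPM, log axis) against the summed CPM of 11 skeletal muscle genes (log axis) in the 12 adult livers. Circles are 8 weeks and squares 16 weeks, grey is PBS and orange asparaginase. Over all 12 livers r was 0.983 for H19 and -0.07 for Meg3. Within 8 and 16 weeks r for Meg3 was 0.69 and 0.859.

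Finally, the genes whose patterns over the 18 libraries were most like each member were named by the root mean square difference of centred log2 values among 12965 genes. Igf2 was nearest to the fetal liver gene Afp (0.877), and Gpc3 (1.48) was also among its nearest. H19 was nearest to Igf2 (1.54), Afp (1.93) and Eln (2.00). Grb10 was nearest to Cd63 (0.269), Bex4 (0.292) and Pls1 (0.388), and Peg3 to Grb10 (0.396), Cacna1b (0.398) and Sult2a6 (0.445). The pairs Igf2 with H19 and Peg3 with Grb10 are thus members that followed each other. Mest was nearest to Col5a1 (0.187), Col4a5 (0.21) and Nid1 (0.234), which encode collagens and a basement membrane protein. Cdkn1c was nearest to C1qtnf6 (0.296), Col5a1 (0.334) and Postn (0.337), and Plagl1 to Fbn1 (0.247), Fstl1 (0.258) and Nid1 (0.263). Meg3 was nearest to Spry4 (0.403), Fzd8 (0.571) and Cyp2c70 (0.576), Dlk1 to Spry1 (0.25), Ccng2 (0.283) and Thbd (0.284), and Igf2r to Prkci (0.17), Bace1 (0.183) and Tmx4 (0.185). A gene of small range has small differences from many others, so the values are not comparable between members, and none was tested.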

How the data were processed

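The starting values were raw read counts of 37315 genes in 18 liver libraries, as the authors deposited them in a single table. The aligner TopHat2 2.0.9, TopHat, DESeq2 and the builds GRCm38 and mm10 appear in the submitters' processing notes, without their roles; counter, annotation and strand setting were not found in the labels. Positions came from GENCODE M21, which matched 35533 of 37315 identifiers. From the counts, genes were kept by filterByExpr (minimum count 10, minimum total 15; 16213 genes), scaled by TMM and fitted with edgeR 4.0.16 (R 4.3.3) over all 18 libraries, with 6 group terms and labelled sex within each age (0.5 male, -0.5 female), leaving 9 residual degrees of freedom. Adjusted p-values without another name are edgeR's, by Benjamini and Hochberg over all tested genes. DESeq2 1.42.0 was an alternative. The fit was tested on simulated data. No pair of libraries in a group was identical (0 pairs). Counts per library totalled 24690871 to 46949361; major urinary protein genes took 0.046 to 0.579% of them in pups and 5.39 to 47.9% in adults, which is why library sizes were scaled. The 10 genes and all gene lists were chosen with earlier results of these data known. From each list the up to 4 genes past the threshold with the smallest p were named per comparison, plus the most abundant other imprinted genes, Impact, treatment genes and the 3 nearest patterns per member, of which 1 is not reported here. The age comparisons within asparaginase mice were chosen after seeing the data. Alternatives were other scalings, no filter, DESeq2, other sex terms and leaving out libraries. Kcnq1ot1, Rian, Mirg, Snrpn, Snurf and Peg13 were not analysed here.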

Additional observations from a re-analysis of the deposited data

How the results depend on the processing

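Igf2, H19, Grb10, Cdkn1c, Peg3, Mest and Plagl1 stayed called lower at 8 and 16 weeks, in both treatments. This held under every alternative that kept replicate libraries in every group, including each of the 18 libraries left out. The age calls of Igf2r, Dlk1 and Meg3 did change, as given with those genes. In asparaginase mice the Dlk1 call at 8 weeks was lost in 10 of 18 such fits (without 8-week asparaginase 1, adjusted p = 0.968), and Meg3 was called there by DESeq2 (adjusted p = 0.0151).

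At 2 weeks asparaginase called 70 genes, 114 with no filter and 452 by DESeq2. It called 6 with no sex term and 33 with the sex term in adults only. At 8 weeks it called 59, and 445, 659 and 2 with no filter, DESeq2 and no sex term. DESeq2 called 1 of the 10 genes there. At 16 weeks it called 38, and 83, 321 and 19 with no filter, DESeq2 and no sex term. Without the mixed libraries 3243 genes differed between 8 and 2 weeks in PBS mice, in place of 5137. For 16 against 8 weeks the 67 genes became 171 with no filter and 550 by DESeq2, and 1 of the 10 genes was called with no filter, by DESeq2 and without the mixed libraries. The effect at 2 minus 8 weeks was called for 2 genes with no filter and 83 by DESeq2, and at 2 minus 16 weeks for 16, 107, 1 and 3 with no filter, DESeq2, no sex term and the sex term in adults only. The cause of these shifts was not tested. The fit without the mixed libraries had PBS 3 as its only PBS pup. Its counts of called genes are listed as a record of that setting, and no conclusion is drawn from them.

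Some treatment estimates changed sign. At 2 weeks asparaginase gave Dlk1 -0.0066 by DESeq2, H19 0.031 with no sex term and 0.031 with it in adults only, and, without the mixed libraries, Grb10 -0.20, Dlk1 -0.0026 and Peg3 -0.33. With no sex term it gave Cdkn1c -0.053, Meg3 -0.22 and Mest -0.056 at 8 weeks, and Mest -0.17 and Plagl1 -0.035 at 16 weeks. Meg3 at 16 against 2 weeks in PBS mice gave -0.047 without the mixed libraries.

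With 1 library left out, the count of genes called for asparaginase ran from 0 (without asparaginase 1) to 265 (without 8-week PBS 1) at 2 weeks, 0 to 398 at 8 weeks and 5 to 52 at 16 weeks. For age in PBS mice it ran from 2265 to 5585 at 8 weeks, 1896 to 5270 at 16 weeks and 3 to 397 between those ages, and in asparaginase mice from 1365 to 5475 and 1482 to 5144. The differences of effects ran from 0 to 12 genes (2 minus 8 weeks) and 0 to 3 (2 minus 16 weeks). Of the 10 genes, 0 to 1 were called between 8 and 16 weeks and for asparaginase at 8 weeks. The asparaginase estimates at 2 weeks ran from -1.20 (without PBS 1) to 1.23 (without PBS 2) for Igf2, -0.87 to 0.70 for H19, -0.62 to 0.044 for Cdkn1c, -0.37 to 1.02 for Dlk1, -0.20 to 0.31 for Grb10, -0.78 to 0.13 for Meg3 and -0.29 to 0.58 for Peg3. At 8 weeks they ran from -0.14 to 0.42 for Cdkn1c, -0.085 to 0.67 for Igf2r, -0.27 to 0.67 for Meg3, -0.24 to 0.39 for Mest and -0.15 to 0.55 for Peg3, and at 16 weeks from -2.87 to 0.70 for Dlk1, -0.52 to 0.063 for Igf2 and -0.28 to 0.38 for Mest. Igf2r at 8 against 2 weeks in asparaginase mice ran from -0.22 to 0.21, and Meg3 at 16 against 2 weeks in PBS mice from -0.32 to 0.77.

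No paired analysis was possible because the labels number the libraries singly and give the groups no shared replicate numbers. Depth limits Dlk1 most, with 2 counts over the 8-week PBS group.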
